A study of Mus musculus with 10 samples.

Results

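The L1 family of cell adhesion molecules and the ankyrins that anchor them to the membrane skeleton were examined in single Bergmann glial cells of the mouse cerebellum. The members are 4 L1 family genes, L1cam, Chl1, Nrcam and Nfasc, and 3 ankyrin genes, Ank1, Ank2 and Ank3. Every probe set with a value in all cells that the array annotation pairs with 1 of these genes and no other was taken. This gave 29 probe sets of the 45101 on the array: 2 for L1cam, 4 for Chl1, 4 for Nrcam, 3 for Nfasc, 4 for Ank1, 6 for Ank2 and 6 for Ank3. None of the members' probe sets was left out for a missing value or for a second gene, and none of their 290 values lay at the lower limit of 0.01.

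The study profiled 10 cells on an Affymetrix oligonucleotide microarray, with 1 array per cell: 5 cells at P30 (postnatal day 30), when cerebellar development is complete, and 5 cells at P6 (postnatal day 6), when granule cells migrate along Bergmann glial fibers. All 10 cells came from a GFAP-GFP mouse reporter line, with no treatment named, in which the Gfap promoter drives green fluorescent protein in astroglia and not in Bergmann glia alone. Single bright GFP-positive cells with the shape of Bergmann glia were drawn from dissociated mid-sagittal cerebellum. Their cDNA was amplified by PCR and kept for arrays only where the astroglial genes Gfap, Fabp7, Sept4 and Slc1a3 were detected and the neuronal genes Nefl, Mtap2 and, in some cells, Tubb3 were not. No source says how many animals gave the cells, so each age was counted as 1 sample and no test between ages was made. The SDs and ranges given here describe the spread between single cells, including that of the amplification.

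L1 family proteins are transmembrane adhesion molecules with immunoglobulin and fibronectin domains outside the cell. Their short cytoplasmic tails bind ankyrins, and ankyrins in turn bind spectrin, so that a contact between cells is tied to the submembrane skeleton. In the cerebellum Chl1 on Bergmann glial fibers is known to guide the axons of stellate interneurons, and Nfasc on the Purkinje cell initial segment, held there by ankyrin-G, guides those of basket cells.

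Each value is a normalized ratio: the authors divided a probe set's signal by the median of its array and then by a median for that probe set. Ratios of a given probe set can therefore be compared between cells, whereas the level of a probe set cannot be set against that of another, and presence at either age cannot be read from them. Differences are means of log2 ratios at P30 minus those at P6, and a probe set was called different in size where this exceeded 3-fold. The genes were chosen with these differences known, and the study itself listed Ank2 and Nfasc as higher at P30 on the same cells, so the values below are a description of the members. By the study's detection calls, which the values used here do not hold, both Ank2 probe sets with large differences and an Nfasc probe set were present at P30 and absent at P6. Their P6 ratios may therefore be background, and a fold is that of the deposited values and not of transcript levels.

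A pair of Ank2 and a pair of Nfasc probe sets carried the largest differences, whereas no Nrcam probe set was over 3-fold higher at P30. The start regions of these genes are shown for that reason, as the RefSeq annotation of the mouse genome (GRCm38.p6) gives them, from 250 bases before the start to 50 bases after it. For Ank2 and Nfasc the start farthest upstream is shown, at chr3:127499066-127499365 and chr1:132707277-132707576, both on the minus strand. That of Nrcam lies at chr12:44328635-44328934 on the plus strand. Capitals mark matches to a GC box, a TATA box or a CCAAT box, each searched on both strands, so that a match on the other strand appears as its reverse complement.
Ank2: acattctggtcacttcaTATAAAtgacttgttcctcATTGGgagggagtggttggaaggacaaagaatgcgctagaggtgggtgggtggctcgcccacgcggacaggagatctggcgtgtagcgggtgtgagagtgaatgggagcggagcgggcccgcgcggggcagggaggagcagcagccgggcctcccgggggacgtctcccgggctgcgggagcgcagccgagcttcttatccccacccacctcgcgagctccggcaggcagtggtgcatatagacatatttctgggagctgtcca
Nfasc: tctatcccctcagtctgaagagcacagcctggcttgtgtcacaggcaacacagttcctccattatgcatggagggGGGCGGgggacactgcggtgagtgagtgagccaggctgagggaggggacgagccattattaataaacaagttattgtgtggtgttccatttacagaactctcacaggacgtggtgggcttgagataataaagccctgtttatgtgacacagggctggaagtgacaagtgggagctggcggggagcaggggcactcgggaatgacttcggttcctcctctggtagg
Nrcam: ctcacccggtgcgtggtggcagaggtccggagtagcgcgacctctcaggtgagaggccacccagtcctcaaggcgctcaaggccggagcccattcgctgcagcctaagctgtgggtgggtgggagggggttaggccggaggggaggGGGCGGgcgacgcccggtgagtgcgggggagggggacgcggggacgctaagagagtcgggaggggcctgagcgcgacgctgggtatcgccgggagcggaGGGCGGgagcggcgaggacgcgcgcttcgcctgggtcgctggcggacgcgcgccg
The Ank2 sequence held 1 TATA box (TATAAA) at position −233 from the start, and 13.6% of the 32851 promoters of the same length in the annotation held these letters. It also held 1 CCAAT box (named by its letters) at −214, on the opposite strand, as did 37.4% of all promoters on either strand. No GC box (GGGCGG) was found in it, whereas the Nfasc sequence held 1, at −175, and the Nrcam sequence held 2. The share of all promoters with a GC box was 35.7%. The Nrcam and Ank2 sequences were rich in CpG, with 37 and 21 CpG dinucleotides, and the Nfasc sequence held 7, which was also the median of all promoters. In all, 10 promoters of 5 members were present in the table, those of L1cam, Chl1, Nrcam, Nfasc and Ank2. A match is a run of letters, and which start was used in these cells was not measured.

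Some cells stood apart. The fifth P30 cell had the lowest array median, a log2 ratio of −0.46 against −0.13 to −0.10 in the other 4 P30 cells and −0.14 to 0 in the P6 cells. In this cell, marker lists of some other types were high relative to the median of the other 4 P30 cells. Highest was the list of 10 endothelial and pericyte genes, by a median of 3.46 (log2), with 10 genes above. The list of 7 Purkinje genes followed, by 2.58, with 5 genes above. The lists of microglia (−0.64), oligodendrocyte precursors (−0.69) and astroglia (−0.79) were lower in this cell. The fifth P6 cell was high for the list of 12 neuronal genes, by a median of 3.23 relative to the other 4 P6 cells. Of the 12, 9 were above the median of those cells, 7 of them by over 3-fold. The lists of granule neurons (0.08) and Purkinje neurons (−0.01) differed little in the fifth P6 cell. Leaving out both cells, an alternative chosen after seeing the data, gave counts of 7 members over 3-fold higher at P30 and 1 higher at P6, as in all 10 cells. Of the 7 higher at P30, 6 were shared: Ank2 1440043_at dropped below 3-fold (difference 0.77) and Nrcam 1434709_at passed it (1.62).

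Of the 29 probe sets, 7 were over 3-fold higher at P30: 3 of Ank2, 2 of Nfasc and 2 of Ank1. Of all 33964 probe sets with complete values and 1 gene, 6.91% were over 3-fold higher at P30. In the other direction only 1 member probe set, of Nrcam, was over 3-fold higher at P6 (1 to 3 with single cells left out), where 12.3% of all probe sets were. The remaining 21 differed by less than 3-fold, and 0 were over 3-fold higher at P6 without overlap (1.72% of all). All 5 P30 cells lay above all 5 P6 cells for 7 member probe sets (1.21% of all probe sets; 5 of these 7 with arrays scaled to the hybridization controls or after quantile normalization), and all P30 cells lay below all P6 cells for 0 (1.96% of all). Both criteria were met at P30 by 5 probe sets (0.857% of all): 2 of Ank2, 2 of Nfasc and 1 of Ank1. The median difference over the members was 0.33, against −0.05 over all probe sets, and 18 of the 29 had the higher mean at P30 (48.0% of all). The members also varied somewhat less between cells of an age than most probe sets did, with a median pooled SD of 0.95 (log2), against 1.25 over all.

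**Figure D1:**
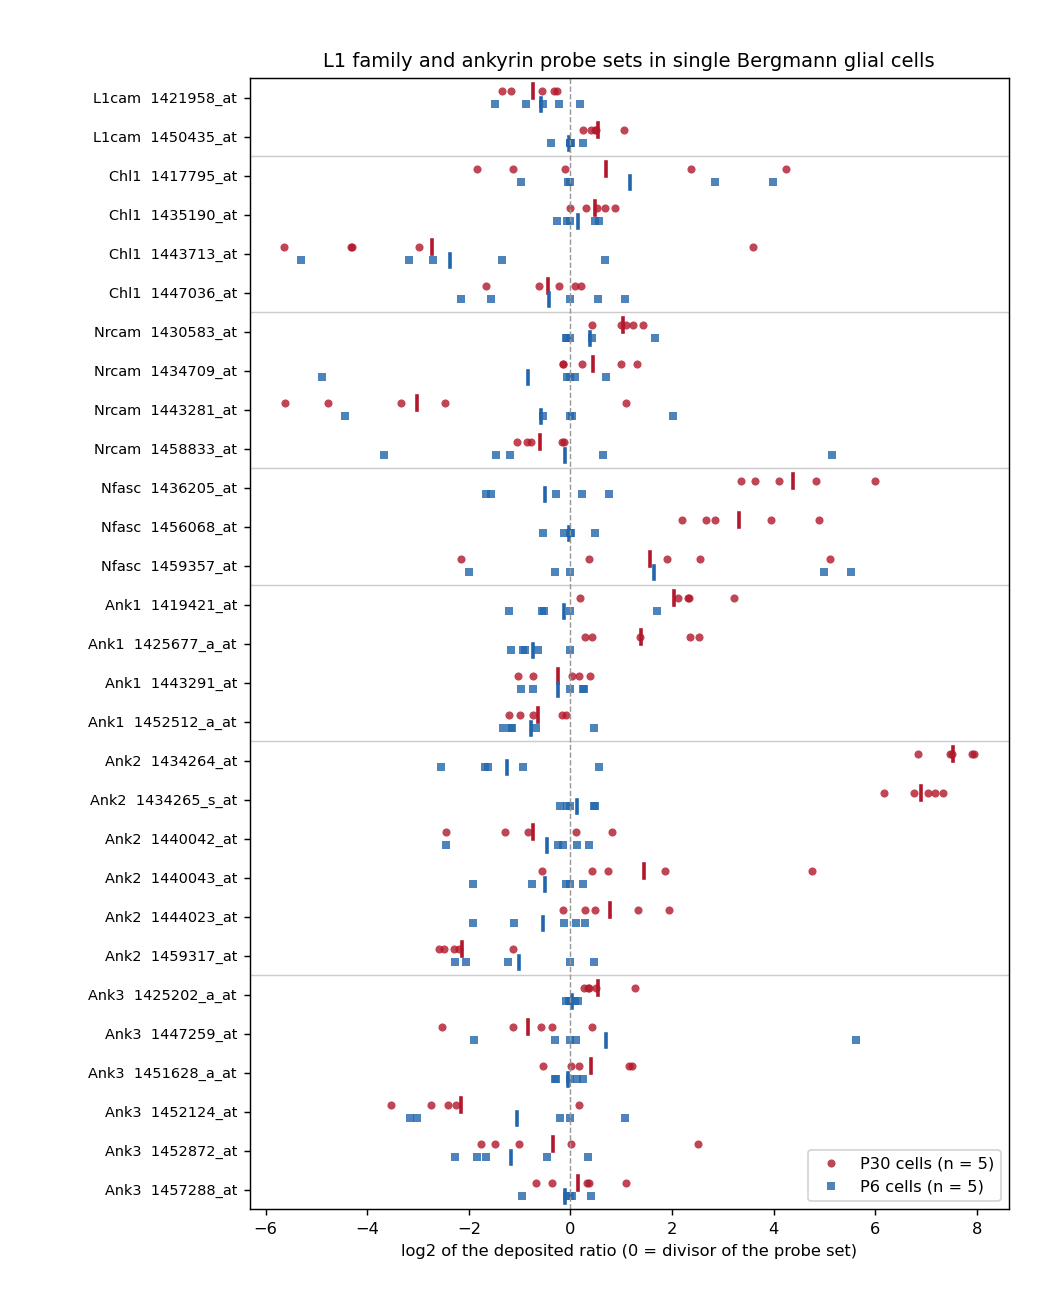
Log2 of the normalized ratio (horizontal axis) of each of the 29 member probe sets (rows) in each of the 10 cells, with P30 cells as red circles above P6 cells as blue squares and a vertical tick at each mean. Ank2 1434264_at and 1434265_s_at have ratios between 71.8 and 247.6 at P30 and between 0.171 and 1.475 at P6, while the ages overlap for 22 of the 29 probe sets.

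L1cam, the founding member of the family and a promoter of axon growth and bundling, differed little between the ages. Probe set 1450435_at had ratios of 1.184, 1.414, 1.403, 1.331 and 2.081 in the 5 P30 cells, against 0.772, 1.183, 1, 1.013 and 0.996 in the 5 P6 cells. The ages did not overlap, if only narrowly, since the first P30 cell and the second P6 cell were almost equal, and the mean was 1.48-fold higher at P30 (difference 0.56). The second L1cam probe set, 1421958_at, rests on the same transcript record and overlapped throughout, at 0.392 to 0.838 in P30 cells and 0.356 to 1.145 in P6 cells. Its mean difference was −0.15. With arrays scaled to the hybridization controls, the difference of 1450435_at was 0.29 and the ages overlapped, as they also did after quantile normalization.

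Chl1, the close homolog of L1, showed no difference that held across cells. The most even probe set, 1435190_at, lay between 0.992 and 1.838 at P30 and between 0.836 and 1.485 at P6, a mean difference of 0.33 in favor of P30. By contrast, 1417795_at varied 67.8-fold among P30 cells. Its ratios there were 0.28, 0.935, 18.97, 0.457 and 5.165, against 7.198, 0.509, 15.89, 0.969 and 1 at P6. High cells occurred at both ages, and the mean difference was −0.45. Probe set 1443713_at was high in the fourth P30 cell alone, at 12.16, against 0.0201 to 0.127 in the other 4 P30 cells, whereas P6 cells lay between 0.0254 and 1.606. The mean difference was −0.35 with all cells, and it ran between −1.93 and 0.41 when single cells were left out. The last probe set, 1447036_at, differed by −0.02. None of the 4 was over 3-fold in either direction by mean log2 ratios of all cells. With arithmetic means over cells 1443713_at was over 3-fold higher at P30, and without the fourth P30 cell it was over 3-fold higher at P6.

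Nrcam, which binds contactins and gliomedin, a protein of nodes of Ranvier, gave probe sets that pointed in different directions. The probe set 1443281_at, the only member over 3-fold higher at P6, had ratios of 0.0987, 0.0203, 2.142, 0.0365 and 0.181 at P30, against 0.685, 4.055, 1, 0.0461 and 1.021 at P6. Of the P30 cells, 4 were low, but so was the fourth P6 cell, and the third P30 cell was higher than 4 of the P6 cells. Its mean was 5.40-fold higher at P6 (difference −2.43). A further pair of probe sets had higher means at P30. For 1430583_at, 4 of the P30 cells lay between 2.006 and 2.705 and the fifth at 1.335, while 4 of the P6 cells lay between 0.947 and 1.345 and the second at 3.192, a difference of 0.65. For 1434709_at the P30 cells spanned 0.905 to 2.498, and the P6 cells 0.958 to 1.633 apart from the second P6 cell at 0.0339. The difference of 1.28 was 0.27 without that cell. The fourth probe set, 1458833_at, turned on a single cell: the fourth P6 cell read 35.57, the other P6 cells 0.0791 to 1.56 and the P30 cells 0.48 to 0.913. The difference was −0.49 with that cell and 0.82 without it.

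Nfasc, neurofascin, has a glial form at the paranodes of myelinated axons and a neuronal form at nodes and axon initial segments. It was the L1 family gene with the largest difference. Ratios of 1436205_at were 17.27, 10.27, 63.92, 28.6 and 12.42 at P30, against 0.825, 1.687, 0.338, 0.318 and 1.175 at P6. The lowest P30 cell, at 10.27, was well above the highest P6 cell, at 1.687. The mean log2 ratio was 4.39 ± 1.06 at P30 and −0.50 ± 1.07 at P6 (SD, n = 5 cells each), a 29.6-fold difference of the deposited values, whose P6 side may be background, and the 91st largest toward P30 among the 33964 probe sets. Probe set 1456068_at gave 29.67, 7.209, 4.604, 15.53 and 6.384 at P30, against 1.011, 0.916, 1.407, 0.686 and 1 at P6. Here too the ages were apart, by a mean of 10.2-fold (difference 3.35). The order of the P30 cells differed between these probe sets. The third P30 cell was the highest for 1436205_at and the lowest for 1456068_at, 3.80 apart on the log2 scale, while the other P30 cells differed by −0.78 to 0.96 between the probe sets.

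The third Nfasc probe set, 1459357_at, was scattered at both ages. It read 1.287, 34.53, 3.762, 0.226 and 5.891 at P30, against 1, 32.02, 0.249, 0.813 and 45.98 at P6. High and low cells occurred at both ages, and the mean difference was −0.08, although by medians over cells this probe set was over 3-fold higher at P30. Thus 2 of 3 Nfasc probe sets separated the ages and the third did not, and the differences among them spanned 4.97 on the log2 scale, against a median of 1.33 over the 8738 genes with 2 or more probe sets. Those genes were not matched to Nfasc for their number of probe sets. Where each probe set lies in the gene, and which form of neurofascin it reads, was not determined here.

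Of the ankyrins, Ank1 (ankyrin-R, the ankyrin of the red cell membrane, also made by cerebellar neurons) had higher means at P30 for all 4 probe sets, but by very unequal amounts. For 1425677_a_at the ratios were 5.75, 2.573, 1.227, 1.334 and 5.136 at P30, against 0.539, 1, 0.443, 0.64 and 0.521 at P6. The ages did not overlap, and the mean was 4.35-fold higher at P30 (difference 2.12). Similar in size was 1419421_at, with 1.147, 4.971, 5.016, 4.37 and 9.298 at P30, against 0.43, 0.681, 1, 3.261 and 0.693 at P6. Of the P30 cells, 4 were above every P6 cell, and the first P30 cell was below the fourth P6 cell, so the ages overlapped, with a mean 4.46-fold higher at P30. The other Ank1 probe sets, 1443291_at and 1452512_a_at, differed by 0.00 and 0.14.

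Ank2, ankyrin-B, the broadly expressed ankyrin that holds L1 family proteins, ion transporters and exchangers at the membrane, held the largest difference of the members. Probe set 1434264_at gave ratios of 247.6, 178.9, 240.8, 182.5 and 114.1 in P30 cells, against 0.324, 0.171, 1.475, 0.312 and 0.525 in P6 cells. The 5 P30 cells lay within 2.17-fold of each other, far above all P6 cells. The mean log2 ratio was 7.54 ± 0.45 at P30 and −1.24 ± 1.16 at P6 (SD, n = 5 cells each), a difference of 8.78, the second largest toward P30 of the 33964 probe sets. As a fold of the deposited values this was 441, with a P6 side that may be background. A second probe set on the same transcript record, 1434265_s_at, read 145.4, 109.1, 160.7, 131.1 and 71.82 at P30, against 0.949, 1, 1.374, 1.393 and 0.871 at P6. This was a 109-fold difference (6.76), the 11th largest. At P30 these probe sets kept a nearly constant ratio to each other, with 1434264_at above 1434265_s_at by 0.48 to 0.77 on the log2 scale, whereas at P6 the gap ran from −2.55 to 0.10. In both, the fifth P30 cell was the lowest of its age. As the probe sets share a record, they do not stand for separate measurements of 2 transcripts.

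The other 4 Ank2 probe sets gave far smaller differences. The ratios of 1440043_at were 1.348, 1.678, 0.679, 3.633 and 27.19 at P30, against 0.592, 1, 0.944, 1.182 and 0.265 at P6. Of the P30 cells, 4 were above all P6 cells, the fifth P30 cell by far the most. The mean was 3.87-fold higher at P30 (difference 1.95), and without the fifth P30 cell the difference was 1.12, below 3-fold. For 1444023_at the P30 cells lay between 0.906 and 3.816 and the P6 cells between 0.266 and 1.216, a 2.51-fold difference that was the closest to 3-fold among the Ank2 probe sets below it. Lower at P30 were 1459317_at, at 0.167 to 0.454 in P30 cells against 0.207 to 1.377 in P6 cells (difference −1.12), and 1440042_at (difference −0.26). Between the lowest and the highest of its 6 probe sets, the Ank2 difference spanned 9.90 on the log2 scale, the widest span of the 8738 genes with 2 or more probe sets. The part of the gene that each probe set reads, and whether it bears on this span, was not tested.

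**Figure D2:**
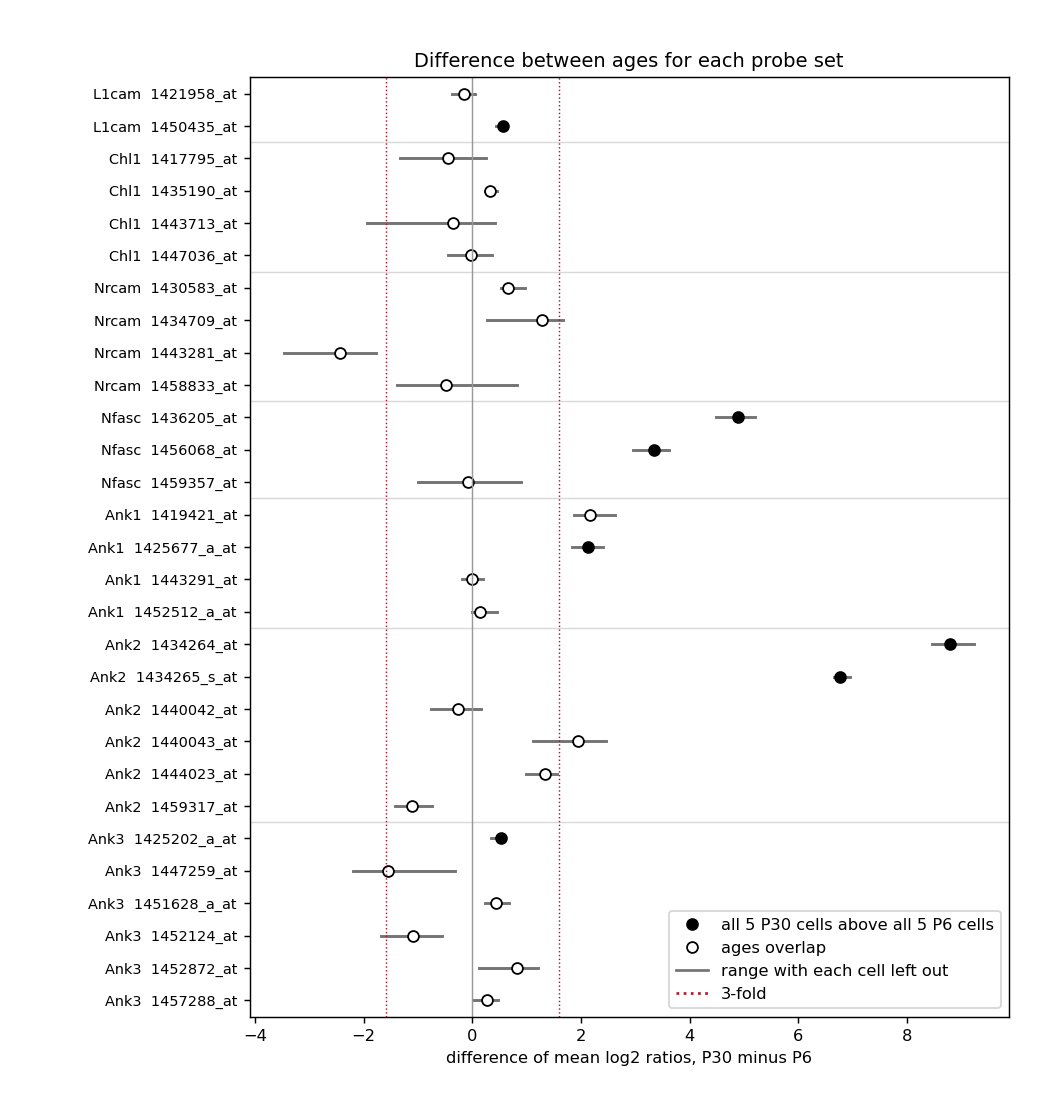
Difference in mean log2 ratio, P30 minus P6, of each member probe set, grouped by gene, with the range obtained when each cell was left out as a bar. Filled symbols are probe sets whose 5 P30 cells all lay above the 5 P6 cells, and dotted lines mark 3-fold. Ank2 spans −1.12 to 8.78 and Nfasc −0.08 to 4.89, while L1cam spans −0.15 to 0.56.

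Ank3, ankyrin-G, which builds the axon initial segment and the node, had no probe set over 3-fold in either direction. Its steadiest, 1425202_a_at, read 1.286, 2.4, 1.196, 1.424 and 1.275 at P30, against 0.947, 1.07, 0.978, 1.113 and 1 at P6. The ages did not overlap, with a mean 1.43-fold higher at P30 (difference 0.52), but they did with arrays scaled to the hybridization controls and after quantile normalization. On the same transcript record, 1451628_a_at lay between 0.686 and 2.308 at P30 and between 0.812 and 1.184 at P6, with overlap and a difference of 0.44. For 1447259_at the difference of −1.55 turned on the fifth P6 cell, which read 49.54, against 0.269 to 1.084 in the other P6 cells and 0.174 to 1.346 in P30 cells. Without that cell the difference was −0.32. The ratios of 1452124_at were between 0.0867 and 1.131 at P30 and between 0.112 and 2.104 at P6 (difference −1.09). Finally, 1452872_at and 1457288_at differed by 0.83 and 0.26, both with overlap.

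Some high readings of members fell in the fifth P30 and the fifth P6 cell, and others fell in other cells. In the fifth P30 cell, Ank2 1440043_at (27.19), Ank1 1419421_at (9.298) and Ank3 1452872_at (5.68) were the highest of their age. In the fifth P6 cell the same held for Ank3 1447259_at (49.54) and Nfasc 1459357_at (45.98). The part of the other cell types' RNA in these readings was not tested. The 5 probe sets over 3-fold higher at P30 without overlap were taken for having each P30 cell above each P6 cell. All 5 stayed over 3-fold higher at P30 when the fifth P30 and the fifth P6 cell were left out. RNA of other cell types in the remaining cells was not tested. Across the 29 probe sets the fifth P30 cell was the lowest of its age for 10 and the highest for 7. The fifth P6 cell was the lowest of its age for 7 and the highest for 3. More often highest of their age were the third P30 cell, for 9, and the fourth P6 cell, for 13. High readings elsewhere included Nrcam 1458833_at in the fourth P6 cell (35.57) and Nfasc 1459357_at in the second P30 cell (34.53).

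**Figure D3:**
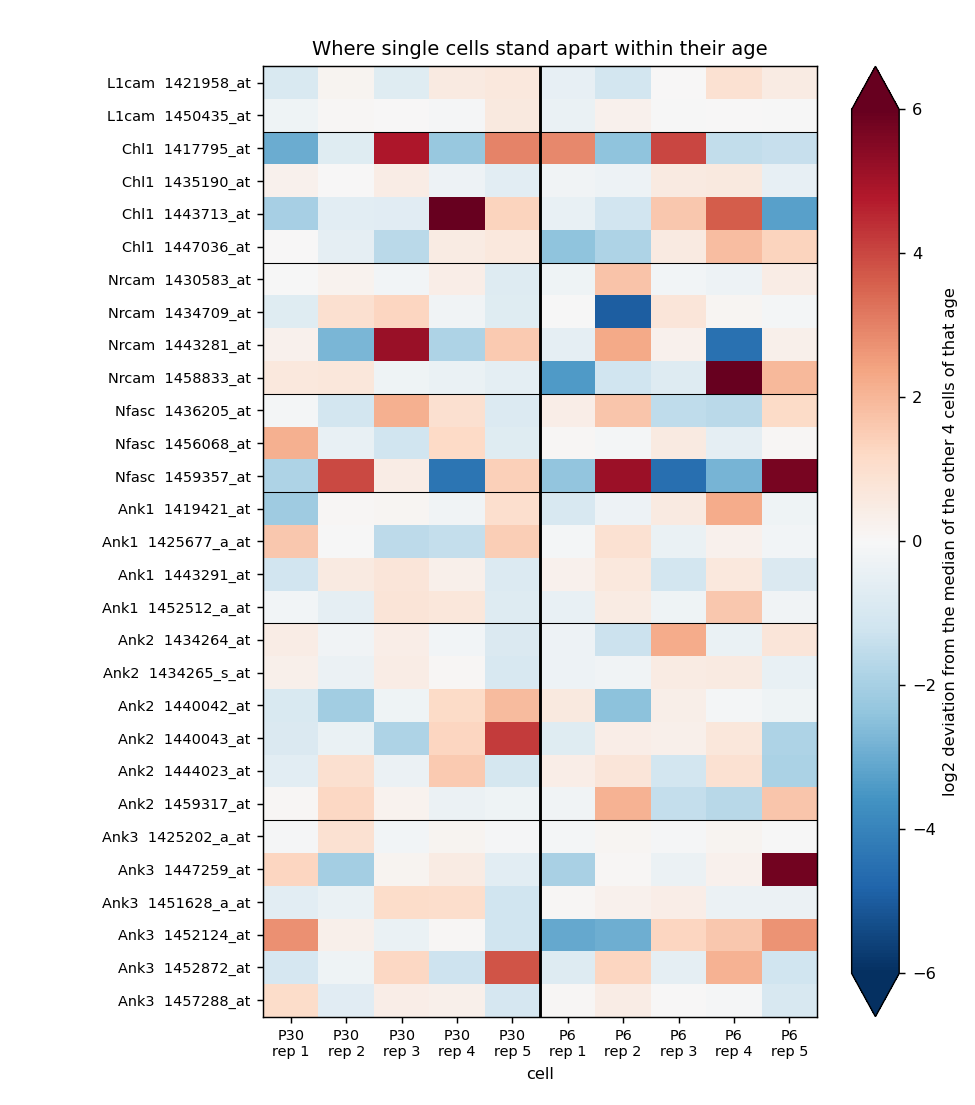
Deviation of each cell (columns, P30 left of P6) from the other 4 cells of the same age (log2 distance to their median), for the 29 member probe sets (rows). Red is above and blue below the other cells, the darkest squares are single readings such as Chl1 1443713_at in the fourth P30 cell and Nrcam 1458833_at in the fourth P6 cell, and the Ank2 rows 1434264_at and 1434265_s_at are even across the P30 cells.

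Because the glial form of Nfasc is also a product of oligodendrocytes, markers of that cell type are given beside it. Of 12 listed oligodendrocyte genes 11 were measured, and 10 had a higher mean at P30, with a median difference of 1.09. Summed over these genes, the ratio ranged from 10.8 to 97.3 in P30 cells and from 7.17 to 34.9 in P6 cells. None of the genes, as the mean of its probe sets, was at the lower limit in any cell. The median log2 ratio of the list was highest in the fifth P30 cell, at 1.53, and lowest of its age in the second P30 cell, at −0.24, and it lay between −0.50 and 0.24 in P6 cells. In that second cell Nfasc 1436205_at read 10.27, its lowest value at P30, and Ank2 1434264_at read 178.9. In the fifth P30 cell Nfasc 1436205_at read 12.42 and Ank2 1434264_at read 114.1, the lowest P30 value of the latter. Myelin basic protein, Mbp, was 3.12-fold higher at P30 with overlapping cells (log2 ratio −2.56 to 2.62 at P30 and −2.42 to 1.78 at P6). Cldn11, a tight junction protein of myelin, was 4.03-fold higher at P30, also with overlap. For Cnp, a myelin enzyme, the ages did not overlap, with log2 ratios of 0.75 to 1.57 in P30 cells, against −1.89 to 0.68 in P6 cells, and a mean 2.58-fold higher at P30, although each of its single probe sets overlapped. Ankyrins and L1 family members are likewise made by neurons, so neuronal markers are given too. The neuronal list had a median difference of −0.20, with 5 of 12 genes higher at P30. Its summed ratio was 6.94 to 161 in P30 cells and 6.58 to 114 in P6 cells. In this list Syn1 was 14.05-fold higher at P30 and Nefm 3.36-fold higher at P6, both with overlap. The granule neuron list had a median difference of −0.21, with 3 of 9 genes higher at P30. The Purkinje list had a median difference of 0.36, with 5 of 7 genes higher at P30 and a summed ratio of 4.31 to 239 in P30 cells and 4.31 to 139 in P6 cells. Rgs8 (5.14-fold) and Pvalb (3.29-fold) of this list were over 3-fold higher at P30 with overlap, and 0 were over 3-fold higher at P6. Median differences were 0.01 for oligodendrocyte precursors (3 of 6 genes higher at P30), 0.02 for microglia (5 of 9) and 0.26 for endothelial cells and pericytes (6 of 10). For astroglia it was 0.38, with 10 of 12 genes higher at P30. None of the 12, as the mean of its probe sets, was at the lower limit in any cell. The single probe set Gfap 1440142_s_at, however, was there in 3 P6 cells. The neurofilament gene Nefm, with 1 probe set, was there in 4 P30 cells and 2 P6 cells. The astroglial list holds 3 of the genes by which the cells were chosen, and the neuronal list 2, beside Tubb3, which was checked in some cells. The part of RNA from other cell types in the Nfasc and Ank2 values was not tested.

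Genes known to work with the L1 family and the ankyrins were set beside the members, a gene being the mean of its complete probe sets. Of the spectrin membrane skeleton 13 of 16 genes were measured, with a median difference of −0.25, against −0.05 over all 17919 genes. Of these, 3 were over 3-fold higher at P30 (4.93% of all genes) and 2 over 3-fold higher at P6 (9.39% of all). Epb41l1, protein 4.1N, which links spectrin and actin, was 8.48-fold higher at P30, with log2 ratios of 2.51 to 3.49 in P30 cells, against −0.70 to 0.52 in P6 cells. The related Epb41l3, protein 4.1B, was 3.91-fold higher at P6, with log2 ratios of −2.48 to −0.77 in P30 cells, against −0.72 to 1.49 in P6 cells. Cells of the ages did not overlap for either gene, so these paralogs differed in opposite directions, although at the level of single probe sets only 1 of 3 was without overlap for each gene. Of all genes, 0.843% were over 3-fold higher at P30 without overlap and 1.75% at P6. The other spectrin skeleton genes past 3-fold were Add3 (4.61-fold, an adducin) and Sptbn4 (3.27-fold, beta-IV spectrin) toward P30, and Sptan1 (4.79-fold, alpha-II spectrin) toward P6, each with overlapping cells.

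The remaining lists held few such genes. Among 16 measured partners at nodes and axon initial segments, 0 were over 3-fold in either direction and the median difference was −0.10. The largest was that of Cntnap1, the contactin-associated protein of paranodes, whose ratio was 1.965, 2.624, 1.463, 1.227 and 3.906 at P30, against 0.547, 1.199, 0.942, 0.437 and 1.058 at P6. These did not overlap, and the mean was 2.63-fold higher at P30. Of 24 coreceptors, ligands and sheddases of the L1 family, 16 had a higher mean at P30 with a median difference of 0.27 (−0.0079 with arrays scaled to the hybridization controls), and 0 were over 3-fold. Itgb3, integrin beta 3, had the largest difference there (1.22), with overlap. Among 18 cytoplasmic partners only Ranbp9, a scaffold protein that binds L1, was over 3-fold (3.34-fold higher at P30, with overlap), and the median difference was −0.11.

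Of the ankyrin cargoes and regulators 20 of 24 genes were measured, with a median difference of 0.23. The gene with the largest difference was Atp1b1, a beta subunit of the sodium pump, which was 7.89-fold higher at P6 with overlapping cells. Of its 5 probe sets, 4 differed by −4.54 to −3.15, and some of their P30 values lay at the lower limit, while 1455949_at differed by 0.63. For 1423890_x_at and 1451152_a_at alone, all P30 cells lay below all P6 cells. The medians of the 5 partner lists thus lay between −0.25 and 0.27, and those of all lists but the spectrin skeleton changed sign under at least 1 other array scaling.

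**Figure D4:**
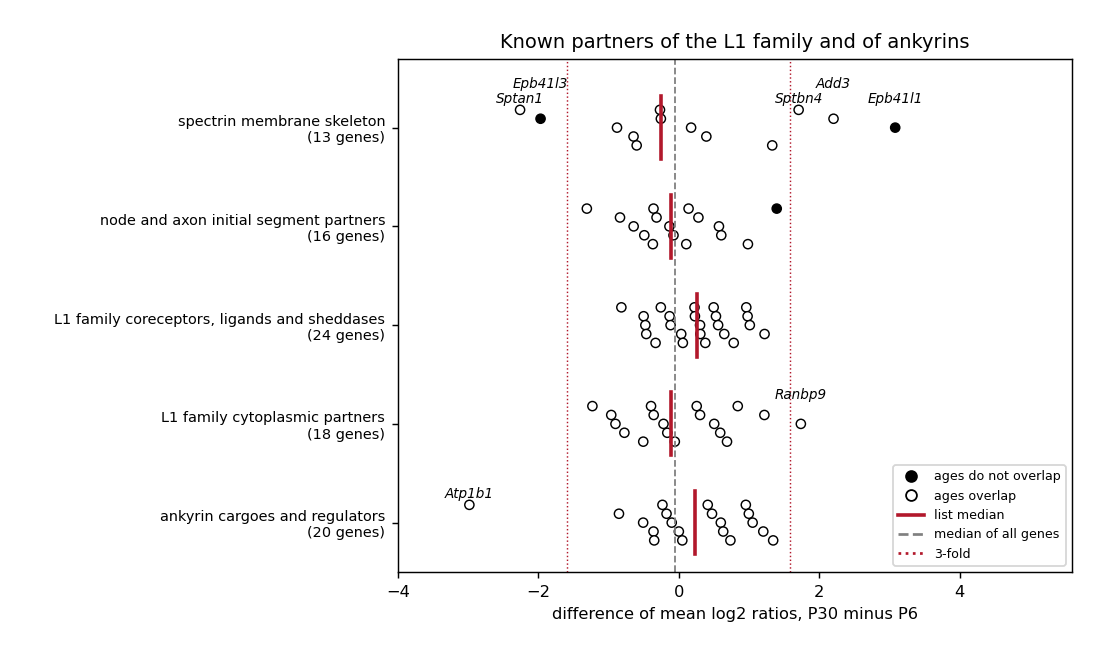
Difference in mean log2 ratio, P30 minus P6, of each measured partner gene in 5 lists, with list medians in red, the median of all genes dashed and 3-fold dotted. Filled symbols are genes whose P30 and P6 cells did not overlap. Epb41l1 (3.08) and Epb41l3 (−1.97) lie on opposite sides of 0 without overlap, and Atp1b1 lies lowest at −2.98.

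The probe sets of other genes with the nearest pattern over the 10 cells were sought for the 5 member probe sets that were over 3-fold without overlap. Likeness was measured as the root mean square (RMS) difference of log2 ratios, each probe set centered on its own mean. The values were not scaled, so a near probe set is mainly one with an age difference of like size. A small distance does not show that single cells within an age follow the same order. For Ank2 1434265_s_at the nearest was Greb1, an RMS difference of 0.60 away, with ratios of 208.2 to 365.1 at P30 and 0.822 to 3.72 at P6. Next were Anxa5 (annexin A5, 0.83) and Nrxn3 (neurexin 3, 0.85). For 1434264_at they were Greb1 (1.03), 1700047M11Rik (1.10) and Lgi4 (1.42), a secreted protein that binds ADAM receptors. The distance between these Ank2 probe sets was 1.22, more than that of either to Greb1.

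Nearest to Nfasc 1436205_at were Gpr146 (0.91), Dlc1 (0.97) and Anxa5 (1.03). Nearest to 1456068_at were Dbp (a clock-controlled transcription factor, 0.63), Tuba4a (an alpha-tubulin, 0.67) and S1pr1 (a sphingosine 1-phosphate receptor, 0.68). No gene was named for both Nfasc probe sets, which lay 1.50 from each other. For Ank1 1425677_a_at the nearest were Nipsnap2 (0.53), Car4 (a carbonic anhydrase, 0.55) and Endod1 (0.58). Anxa5 was named for Nfasc 1436205_at and for Ank2 1434265_s_at, with ratios of 131.1, 20.18, 124.4, 50.9 and 71.82 at P30, against 1, 1.623, 0.886, 1.043 and 0.825 at P6.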

How the data were processed

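Single Bergmann glial cells from GFAP-GFP mice, 5 at P30 and 5 at P6, were profiled with 1 Affymetrix mouse array each. cDNA was primed at the poly-A tail, kept short and amplified by PCR. The deposited values are linear ratios: the authors applied RMA (Robust Multichip Average) in GeneSpring, set values under 0.01 to 0.01, divided each array by its median and each probe set by a median. The methods give the last divisor as the median of all samples. In the file, the median of the P6 cells was at 1 (within 0.002) for 69.5% of complete probe sets and that of all cells for 2.07%, so its definition is uncertain. A divisor shared by all cells does not alter differences between ages.

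Here, 10 deposited values of 0 were set to 0.01 and log2 of the ratios was taken. Of 45101 probe sets, 43608 had values in all cells, and 33964 of these were paired with 1 gene by the platform annotation. Differences of mean log2 ratios, P30 minus P6, were read against a 3-fold size rule and against overlap of the cells. Groups came from the labels, which name no animal, so no p-value was computed and the number of arrays limits the precision. The members and the lists of partners and markers were chosen with earlier results of these data known. Every member probe set was reported. Of each partner list, genes over 3-fold without overlap were named, or else the gene with the largest absolute difference, and others past 3-fold were added after their values were seen. For each member probe set over 3-fold without overlap, the 3 probe sets of other genes with the smallest RMS difference were named. Genes among the lists without a complete probe set of their own were not analysed here. Alternatives were other array scalings (array median, 18 hybridization control probe sets, quantile), a floor of 0.1, medians or arithmetic means over cells, a 2-fold rule, leaving out probe sets ending in _s_at or _x_at or with a value at the floor, and leaving out each cell. The work ran in Python 3.11.15 with pandas 2.3.3, NumPy 2.4.6 and SciPy 1.17.1, and figures were drawn in Matplotlib 3.10.9. Calls were tested on simulated data, normal values with known shifts, which checks the code and not the calls in these cells.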

Additional observations from a re-analysis of the deposited data

Results flagged for a closer look

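Within an age, single cells lay far from the other 4 for 7 of 58 groups of 5 cells (29 probe sets at 2 ages), by a limit of 0.71 on the gap to the nearest cell over the whole range. This limit is meant to pass about 1 in 20 groups by chance, and it was passed by 10.9% of such groups over all 33964 probe sets. For Chl1 1443713_at the fourth P30 cell read 12.16, against 0.0201 to 0.127 in the other P30 cells. For Ank2 1459317_at the second P30 cell read 0.454, against 0.167 to 0.22, and for Ank3 1425202_a_at the same cell read 2.4, against 1.196 to 1.424. The second P6 cell was far from the other P6 cells for 3 probe sets: it was high for Nrcam 1430583_at (3.192, against 0.947 to 1.345) and low for Nrcam 1434709_at (0.0339, against 0.958 to 1.633) and Ank2 1440042_at (0.182, against 0.84 to 1.296). For Ank3 1447259_at the fifth P6 cell read 49.54, against 0.269 to 1.084 in the other P6 cells. Of the 5 probe sets that were over 3-fold higher at P30 without overlap, 0 were among these.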

How the results depend on the processing

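No member probe set that was past 3-fold by mean log2 ratios of all cells changed direction under any alternative. Of the 29, 9 changed sign when single cells were left out, all of them below 3-fold with all cells. The count of member probe sets over 3-fold higher at P30, 7 in all cells, was 7 under each of the 3 other scalings, 8 with arithmetic means, 6 without probe sets ending in _s_at or _x_at and 9 at 2-fold. It ran from 6 to 8 when single cells were left out, with 6 without the fifth P30 cell. The count over 3-fold higher at P6, 1 in all cells, was 2 with arrays scaled to the hybridization controls, 2 with medians over cells, 2 with arithmetic means and 4 at 2-fold. It ran from 1 to 3 with single cells left out: 3 without the first P30 cell, without the fourth P30 cell or without the first P6 cell, and 2 without the third P30 cell or without the second, the third or the fourth P6 cell. The median difference of the members, 0.33, was 0.48 with arrays centered on their median, 0.051 with hybridization controls and 0.50 with arithmetic means, and ran from 0.24 to 0.44 with single cells left out. Medians of partner lists near 0 changed sign with the scaling: the cytoplasmic partners were at 0.05 and the node partners at 0.05 with centering, and the ankyrin cargoes at −0.04 with hybridization controls. That of the coreceptors, ligands and sheddases, 0.27, was −0.0079 with hybridization controls. These scalings moved the median of all probe sets too, from −0.05 to 0.11 with centering and to −0.32 with hybridization controls. With the controls, 4.86% of all probe sets were over 3-fold higher at P30 and 16.1% at P6, and with centering 8.35% and 10.7%.

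Of single probe sets, Ank2 1434265_s_at differed by 6.23 after quantile normalization, L1cam 1450435_at by 0.29 with hybridization controls, and Ank3 1447259_at by −3.95 and Nrcam 1458833_at by −3.47 with arithmetic means. The causes were not tested. The count of probe sets with all P30 cells above all P6 cells, 7 in all cells, was 5 with hybridization controls and 5 after quantile normalization, both without L1cam 1450435_at and Ank3 1425202_a_at, 8 with centering and 7 to 8 with single cells left out. The count below was 0 in each. The 7 over 3-fold higher at P30 shared 6 with those by medians over cells. There Ank2 1440043_at dropped out and Nfasc 1459357_at, at −0.08 by mean log2 ratios, passed 3-fold toward P30. With arithmetic means Chl1 1443713_at, at −0.35 by mean log2 ratios, passed 3-fold toward P30. Nrcam 1443281_at was then not among the 2 higher at P6. No paired analysis was possible because each age counts as 1 sample without a test, and the replicate numbers name cells of different animals at different ages. Ratios without a level or a detection call limit what can be said of genes near background.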
